A study of Homo sapiens with 12 samples.

Results

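Chromatin bound by STAT3 phosphorylated on a serine (pS727STAT3, here pSTAT3) was compared with chromatin bound by BCL9 in DCIS.COM cells whose BCL9 had been knocked down. The libraries were the 4 of 12 in the series that carried a knockdown label and either antibody, 2 with anti-pSTAT3 and 2 with anti-BCL9, and together they listed 1340877 of the 2591856 peak pairs in all lists. DCIS.COM is a human breast cancer cell line that forms lesions resembling ductal carcinoma in situ, and the knockdown came from a lentiviral short hairpin RNA against BCL9. Cells were crosslinked with formaldehyde, and the labels name the libraries biological replicates without saying whether the 2 antibodies were used on the same cultures. Control (NS) cells of the same line gave 3 libraries with each antibody, which serve below only as a reference. A knockdown lowers a protein without removing it, the lists hold no RNA or protein level of BCL9, and the depth of the knockdown in these cultures could not be read from them. The IgG library was not analysed here.

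STAT3 is a transcription factor activated by cytokines of the IL-6 family and by growth factor receptors. Its phosphorylation on that serine, in the transactivation domain, modulates its transcriptional activity. BCL9 is a co-activator without a DNA-binding domain of its own that links beta-catenin to PYGO proteins in Wnt signalling, so its crosslinks to DNA pass through other proteins. AP-1, a dimer of FOS and JUN family proteins, binds many enhancers of basal epithelial cells. NF-Y, a trimer, binds the CCAAT box of many promoters.

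ChIP-exo trims immunoprecipitated DNA with an exonuclease up to the crosslinked protein, and a peak pair is a left and a right border called together. Each pair was placed at the midpoint of its borders and given a 100 bp window, and pairs were ranked by signal within their own list. The signal of every pair was a whole number of tags times a constant of its library. The pSTAT3 libraries held 415624 and 493174 peak pairs, and the BCL9 libraries held 95586 and 336493. Each list was therefore shortened to its 95586 strongest pairs, a point reached at 9 and 10 tags in the pSTAT3 libraries and at 7 tags in both BCL9 libraries. At that length the pSTAT3 pairs crowded together, with 2.86 and 2.96 pairs per merged region against 1.37 and 1.60 for BCL9. A second form of the lists therefore kept only windows that no stronger window of the same library overlapped, 72129 in each library. This form was added after the data had been seen.

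In the nonoverlapping lists, 9913 merged regions held a window of all 4 libraries, 10568 held both pSTAT3 libraries and neither BCL9 library, and 2932 held both BCL9 libraries and neither pSTAT3 library. These are called shared, pSTAT3 alone and BCL9 alone. For each class, 3 or 4 of the strongest regions by mean rank that lay outside coding exons and untranslated regions are printed as 100 bases of the hg19 plus strand, since they show the letters on which the classes differed. Capitals mark TGACTCA, the AP-1 string, and CCAAT, each on either strand. These strings can overlap by at most 1 base, and they stood in 4.95% and 34.6% of 35116 RefSeq promoters of 300 bases (GRCh38.p14).

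The shared regions stood 167410 bp upstream of HMGA2, in an intron of RAD51B, inside IL6R and 68576 bp upstream of EFEMP1.
Shared, HMGA2, chr12:66050781-66050880: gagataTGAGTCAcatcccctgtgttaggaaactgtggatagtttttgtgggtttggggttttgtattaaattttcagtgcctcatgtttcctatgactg
Shared, RAD51B, chr14:69162134-69162233: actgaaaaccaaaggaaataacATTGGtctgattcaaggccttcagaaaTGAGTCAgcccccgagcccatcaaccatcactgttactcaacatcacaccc
Shared, IL6R, chr1:154390918-154391017: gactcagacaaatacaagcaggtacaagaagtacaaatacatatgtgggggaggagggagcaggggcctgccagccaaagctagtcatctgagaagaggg
Shared, EFEMP1, chr2:56219801-56219900: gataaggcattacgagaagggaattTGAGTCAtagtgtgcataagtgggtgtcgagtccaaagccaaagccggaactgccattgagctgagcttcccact

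The pSTAT3 alone regions stood in an intron of FGF1, 194099 bp upstream of ZBTB20 and 49697 bp upstream of GAS6. The GAS6 window repeats a stretch of its own sequence.
pSTAT3 alone, FGF1, chr5:142060594-142060693: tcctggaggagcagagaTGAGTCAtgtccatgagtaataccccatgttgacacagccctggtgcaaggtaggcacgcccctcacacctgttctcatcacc
pSTAT3 alone, ZBTB20, chr3:115060189-115060288: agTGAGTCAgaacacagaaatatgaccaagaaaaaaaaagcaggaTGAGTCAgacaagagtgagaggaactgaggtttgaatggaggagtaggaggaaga
pSTAT3 alone, GAS6, chr13:114616697-114616796: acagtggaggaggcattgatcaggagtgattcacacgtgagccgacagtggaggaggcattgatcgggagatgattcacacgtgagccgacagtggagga

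The BCL9 alone regions stood close to start sites, 162 bp upstream of SPATC1L, 1117 bp upstream of NLK, 322 bp upstream of ANKHD1 and 298 bp upstream of EVI5L. The SPATC1L window also repeats a stretch of its own sequence.
BCL9 alone, SPATC1L, chr21:47604503-47604602: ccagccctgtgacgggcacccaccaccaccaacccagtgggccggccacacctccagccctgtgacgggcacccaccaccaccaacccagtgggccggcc
BCL9 alone, NLK, chr17:26368537-26368636: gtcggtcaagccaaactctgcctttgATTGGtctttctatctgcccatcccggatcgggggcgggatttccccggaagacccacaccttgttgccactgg
BCL9 alone, ANKHD1, chr5:139781028-139781127: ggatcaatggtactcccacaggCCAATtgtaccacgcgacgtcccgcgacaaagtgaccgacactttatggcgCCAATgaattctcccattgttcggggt
BCL9 alone, EVI5L, chr19:7894757-7894856: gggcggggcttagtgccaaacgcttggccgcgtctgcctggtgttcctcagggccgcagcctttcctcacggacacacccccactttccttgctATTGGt

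To ask how far both antibodies marked the same positions, windows were intersected, and a window counted as overlapped where it shared at least 1 bp with a window of the other list. At equal list length, 77.9% of the windows of pSTAT3 1 met a window of pSTAT3 2, and 78.9% did so in the other direction. Of the windows of pSTAT3 1, 48.9% met BCL9 1 and 57.8% met BCL9 2. Of the windows of pSTAT3 2, 49.0% met BCL9 1 and 58.3% met BCL9 2. The mean over the pSTAT3 libraries was 53.5% ± 0.206 (SD, n = 2), while windows moved by 5 to 20 kb met BCL9 windows in 1.81% to 1.84% of cases. At this list length about as many pSTAT3 windows lay at a BCL9 window as did not. The share was 31.4% with nonoverlapping windows and 22.8% with all listed pairs.

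The BCL9 replicates shared fewer positions with each other. Of the windows of BCL9 1, 33.9% met BCL9 2, against 31.0% and 30.7% that met pSTAT3 1 and pSTAT3 2. Of the windows of BCL9 2, 39.7% met BCL9 1, against 42.5% and 42.1% for the pSTAT3 libraries. BCL9 2 thus met either pSTAT3 library more often than its own replicate. In the nonoverlapping lists both BCL9 libraries did so, since BCL9 1 met its replicate in 23.7% of windows and the pSTAT3 libraries in 25.6% and 25.7%, while BCL9 2 met its replicate in 24.4% and the pSTAT3 libraries in 32.0% and 32.5%.

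**Figure D1:**
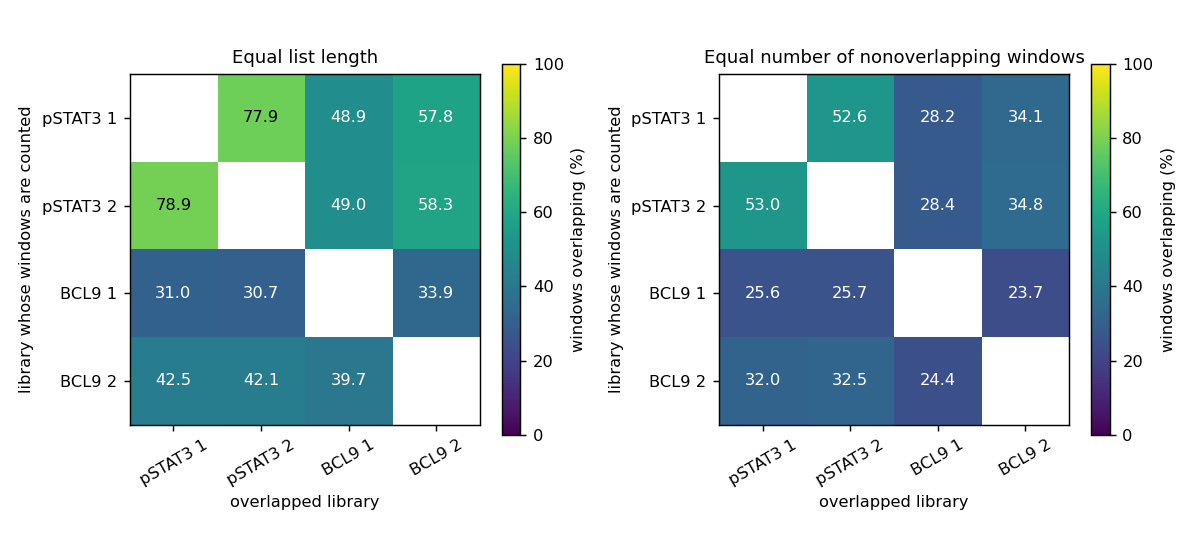
Share of windows of one library (rows) that overlap a window of another (columns), in percent, at equal list length (left) and with nonoverlapping windows (right). The pSTAT3 replicates stand apart at 77.9% and 78.9% on the left, whereas the BCL9 replicates at 33.9% and 39.7% lie within the range of the between-antibody cells.

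The Jaccard index, the shared part of 2 lists over their union, was 0.645 for the pSTAT3 pair and 0.225 for the BCL9 pair, and ran from 0.249 to 0.335 for the 4 pairs of different antibodies. Same-antibody pairs exceeded different-antibody pairs by 0.143 on average (one-sided exact permutation p = 0.333 over 3 pairings, the smallest that 4 libraries allow). The excess came from the pSTAT3 pair, and without either pSTAT3 library the difference was -0.0668.

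The same ordering was examined in control cells with lists shortened to the smallest of all 10 (24728 pairs). There, the knockdown BCL9 libraries met their replicate in 45.6% and 55.9% of windows and pSTAT3 in 32.5% and 46.0%, and the 3 control BCL9 libraries met their replicates in 42.3% to 45.0% and pSTAT3 in 31.1% to 37.9%. Each BCL9 library thus met its own antibody more often at this list length. The other-antibody share minus the own-antibody share differed between knockdown and control cells by -1.42 points for BCL9 (exact permutation p = 0.7, 10 assignments, smallest possible 0.1) and by -2.56 points for pSTAT3 (exact permutation p = 0.9). In nonoverlapping lists of 16469 windows, knockdown BCL9 2 and control BCL9 3 met pSTAT3 slightly more often than BCL9, at 40.7% against 40.03% and 34.2% against 33.1%. There the difference between conditions was -0.351 points for BCL9 (exact permutation p = 0.9) and -5.53 points for pSTAT3 (exact permutation p = 0.1, the smallest possible).

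Among the 9913 shared regions, the order of strength also followed the antibody. Spearman's rho over regions was 0.686 between the pSTAT3 libraries, 0.413 between the BCL9 libraries and 0.279 to 0.374 between antibodies. Of the 1000 strongest shared regions of each library, 542 were common to the pSTAT3 pair, 443 to the BCL9 pair and 284 to 311 to pairs of different antibodies. Regions of one library are not independent replicates, so these values describe the libraries and carry no test.

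Overlap depended strongly on rank. In the top decile of the nonoverlapping lists, 66.3% and 66.1% of pSTAT3 windows lay at a BCL9 window and 77.9% and 82.9% of BCL9 windows lay at a pSTAT3 window. The same windows met the other library of their own antibody in 96.9% and 96.0% for pSTAT3 and in 78.7% and 72.7% for BCL9. In the bottom decile the shares at the other antibody were 10.8% to 12.03% in all 4 libraries. The strong BCL9 windows were therefore mostly at pSTAT3 windows, and the weak windows of either antibody mostly were not.

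**Figure D2:**
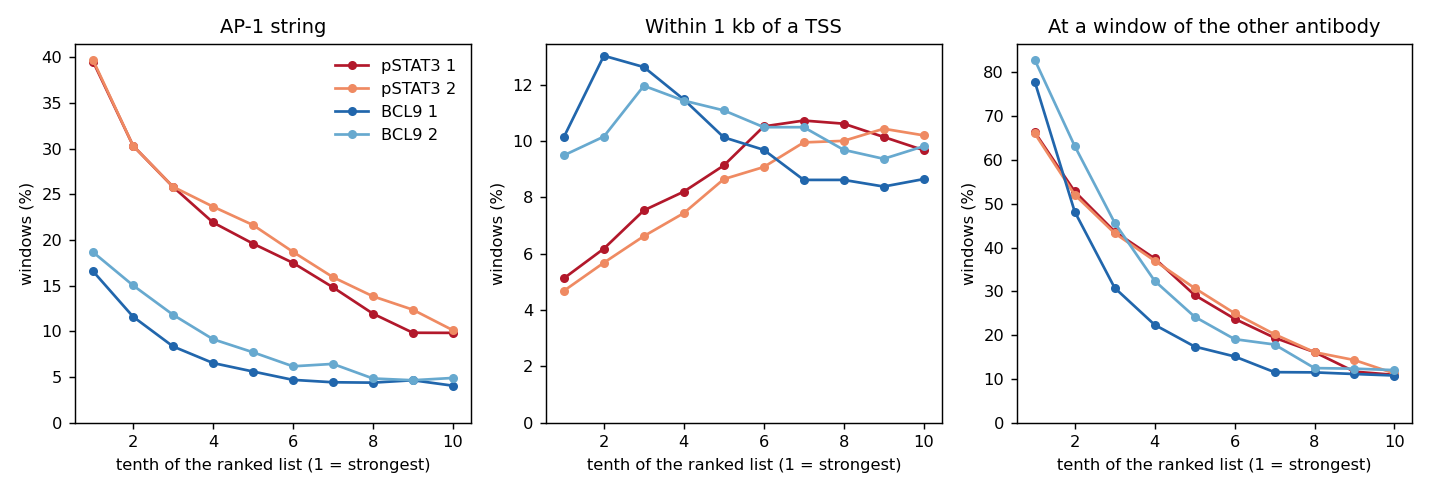
Shares by decile of the ranked nonoverlapping list (1 = strongest, 7212 or 7213 windows each) that hold the AP-1 string, lie within 1 kb of a protein-coding TSS or overlap a window of the other antibody (mean over its 2 libraries), in percent of windows. AP-1 falls with rank in all 4 libraries from 39.5% and 39.7% (pSTAT3) or 16.6% and 18.7% (BCL9), and the share at the other antibody falls to between 10.8% and 12.03%.

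By genomic class, BCL9 windows lay at promoters more often than pSTAT3 windows. Within 1 kb of a protein-coding transcription start site (TSS) lay 6.67% and 5.95% of the windows of the pSTAT3 libraries and 10.3% and 10.2% of those of the BCL9 libraries. The groups did not overlap, and the means were 6.31% ± 0.51 and 10.2% ± 0.0999 (SD, n = 2 each), a difference of -3.92 percentage points (exact permutation p = 0.333, two-sided, the smallest that 2 against 2 libraries allow). Intergenic windows ran the other way, at 50.6% ± 0.434 for pSTAT3 and 45.8% ± 0.548 for BCL9, while the intron shares of 41.3% ± 0.141 and 41.5% ± 0.307 overlapped. With nonoverlapping windows the promoter shares were 8.79% and 8.28% for pSTAT3 and 10.1% and 10.4% for BCL9, a smaller gap of -1.74 points, and with all listed pairs the gap was -2.10 points.

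The promoter gap lay in the strong windows. In the top decile, 5.13% and 4.69% of pSTAT3 windows and 10.1% and 9.50% of BCL9 windows were within 1 kb of a TSS. In the bottom decile the shares were 9.68% and 10.2% for pSTAT3 against 8.65% and 9.82% for BCL9, and the groups overlapped. Both antibodies peaked in the 100 bp just upstream of the TSS, with 1.44% and 1.30% of pSTAT3 windows and 1.69% and 1.81% of BCL9 windows there.

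**Figure D3:**
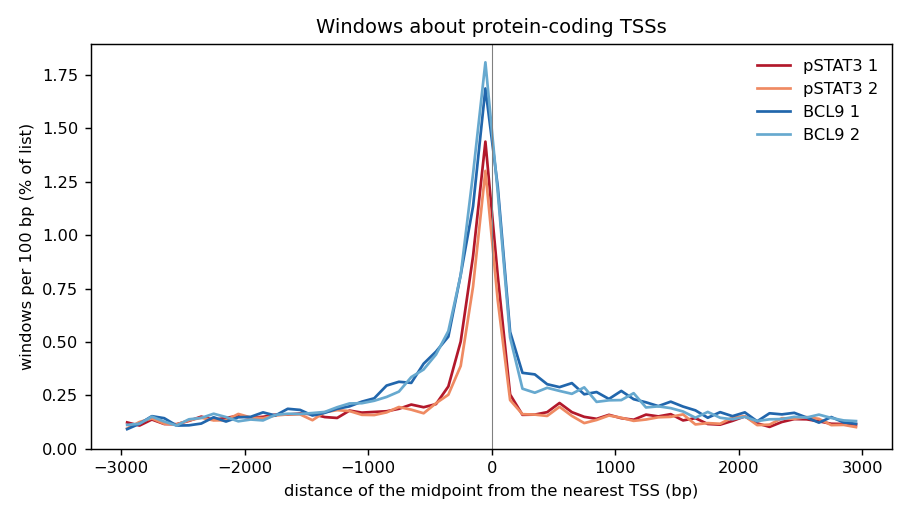
Share of each list of 95586 windows per 100 bp of distance from the nearest protein-coding TSS, in percent, with upstream to the left of 0. All 4 libraries peak in the bin just upstream of the TSS, at 1.30% to 1.44% for pSTAT3 and 1.69% to 1.81% for BCL9.

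The AP-1 string set the antibodies apart most. At equal list length it stood in 29.2% and 29.7% of pSTAT3 windows and in 8.79% and 11.6% of BCL9 windows. The groups did not overlap, and the difference of the means was 19.3 percentage points (exact permutation p = 0.333, two-sided, again the smallest possible). Both antibodies exceeded their flanks, by 14.1-fold ± 0.315 for pSTAT3 and by 5.42-fold ± 1.00 for BCL9 (SD, n = 2 each). With nonoverlapping windows the shares were 20.1% and 21.2% against 7.10% and 8.95%, a difference of 12.7 points, and with all listed pairs the difference fell to 4.41 points. In the nonoverlapping lists, 22642 and 23759 pSTAT3 windows and 9128 and 11386 BCL9 windows had an AP-1 string within 100 bp of the midpoint. The nearest string lay at a median of 34 bp in both pSTAT3 libraries and at 41 and 40 bp for BCL9. Strings at the background level of the flanks are included, and their part in these medians was not tested.

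A test that 4 libraries cannot pass was possible over all 10 pSTAT3 and BCL9 libraries, with antibodies permuted within knockdown and within control cells and lists of 24728 pairs. The AP-1 string stood in 39.0% of the windows of both knockdown pSTAT3 libraries, in 14.6% and 17.6% for knockdown BCL9, in 30.1% to 36.9% for control pSTAT3 and in 9.65% to 13.9% for control BCL9. The antibodies differed by 22.8 percentage points (exact permutation p = 0.0167, two-sided, 120 assignments, the smallest they can give). For promoters the knockdown libraries held 5.10% and 4.82% with pSTAT3 and 11.4% and 9.43% with BCL9, and the difference over all 10 was -4.69 points (exact permutation p = 0.0167, the same smallest value). Both orders held in every library of both conditions at this list length. With all listed pairs the differences were 5.12 points for AP-1 (exact permutation p = 0.0167) and -2.25 points for promoters (exact permutation p = 0.0333). Without the 2 control libraries listed under a single identifier, where the others have several, both tests gave p = 0.0556 (exact permutation), the smallest those 8 libraries allow.

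Other strings differed less. All strings were searched on both strands. The palindromic STAT string TTCCNGGAA stood in 0.670% and 0.681% of pSTAT3 windows and in 0.395% and 0.399% of BCL9 windows, which was 2.61-fold ± 0.156 and 1.60-fold ± 0.0864 above the flanks. TEAD factors partner the co-activators YAP and TAZ, and their string CATTCC stood in 10.3% of the windows of both pSTAT3 libraries and in 8.19% and 8.84% of BCL9 windows. The NF-Y string CCAATCA went the other way, at 0.803% ± 0.0178 with pSTAT3 and 1.07% ± 0.0215 with BCL9 (SD, n = 2 each). The TCF/LEF string CTTTGAT, for the factors through which beta-catenin and BCL9 act in Wnt signalling, stood in 1.39% ± 0.00518 and 1.35% ± 0.0629, which overlapped, and neither antibody exceeded its flanks, with ratios of 0.962 and 0.945. The groups were apart for STAT, TEAD and NF-Y, but 2 against 2 libraries could not pass a test. The letters of the AP-1 string read backwards, ACTCAGT, searched as a control, were apart too, at 3.07% ± 0.0222 with pSTAT3 and 1.83% ± 0.123 with BCL9, or 2.06-fold and 1.28-fold the flanks. The ratio of the antibodies for this control was near that for STAT, and its first letters can coincide with the last letters of an AP-1 string, so their counts overlap.

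The region classes showed where these strings lay. Shared regions were distal, with 5.43% at promoters and 28.9% holding the AP-1 string. Regions with pSTAT3 alone held AP-1 still more often, at 39.5%, with 8.80% at promoters. Regions with BCL9 alone were at promoters in 29.7% of cases and held AP-1 in 2.63%, beside 1.59% of their flanks. Few regions of this last class thus held the string common in the other classes. Class membership was set by presence in the lists and did not use sequence or position, and no test was run between classes, whose regions share their libraries.

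BCL9 alone regions held AP-1 least both at promoters and away from them, while shared regions led at promoters and pSTAT3 alone regions led elsewhere. Among promoter regions, AP-1 stood in 26.0% of the 538 shared, 20.5% of the 930 pSTAT3 alone and 0.690% of the 870 BCL9 alone. Among distal regions the shares were 29.1% of 9375, 41.3% of 9638 and 3.44% of 2062. The CCAAT box, searched after these sequences had been read, stood in 28.2% of BCL9 alone promoter regions against 11.4% of their flanks, and in 9.67% and 8.60% of shared and pSTAT3 alone promoter regions against 9.85% and 10.2%. At distal BCL9 alone regions it stood in 12.6%, beside 12.4% in the flanks. The NF-Y string contains CCAAT, so their counts overlap. In all RefSeq promoters the NF-Y string stood in 6.95% and the TEAD string in 14.03%, the STAT string in 1.15% and the TCF/LEF string in 2.62%.

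**Figure D4:**
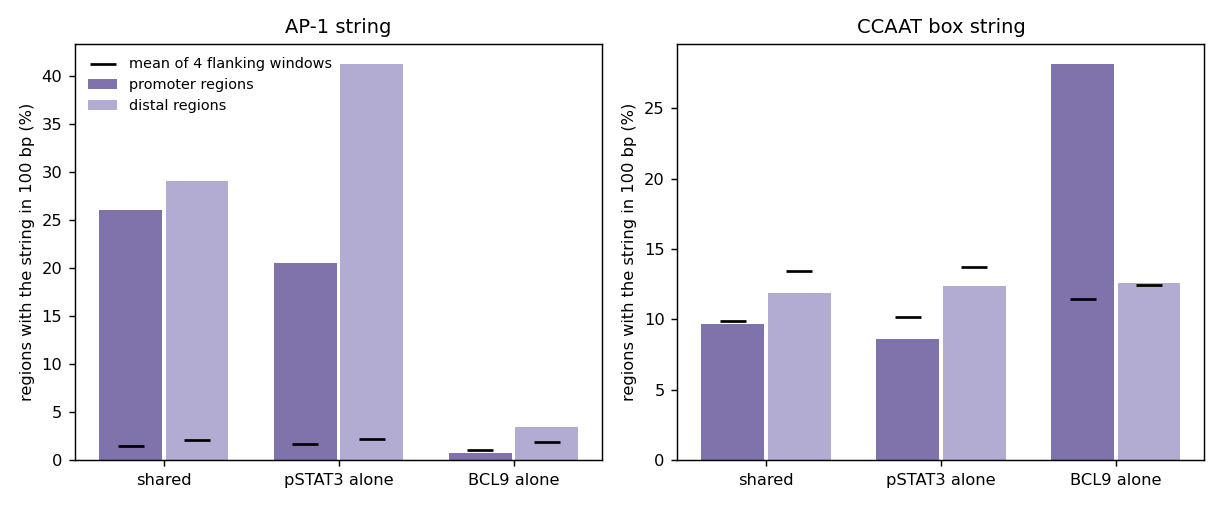
Share of regions whose central 100 bp hold the AP-1 string (left) or CCAAT (right), in percent, by region class for promoter regions (within 1 kb of a TSS) and distal regions, with black marks for the mean of 4 flanking windows. AP-1 reaches 41.3% in distal pSTAT3 alone regions and 0.690% in BCL9 alone promoters, where CCAAT reaches 28.2%.

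The GC-box string GGGCGGGG, bound by SP and KLF factors, was also a promoter string, in 4.28% of shared, 10.6% of pSTAT3 alone and 5.86% of BCL9 alone promoter regions (22.8% of all RefSeq promoters) against 2.97%, 2.98% and 3.68% of their flanks. GC content of promoter regions was 55.6%, 60.5% and 57.3% in the same order. A CTCF window lay at 0.888% of shared, 1.71% of pSTAT3 alone and 3.21% of BCL9 alone regions. In full lists, 7162 of the pSTAT3 alone regions met no BCL9 window and 1223 of the BCL9 alone regions met no pSTAT3 window, so the remaining regions of each class had a weaker pair of the other antibody. Windows of the full control BCL9 lists met 87.8% of shared, 30.4% of pSTAT3 alone and 50.7% of BCL9 alone regions. Those of the full control pSTAT3 lists met 98.8%, 86.2% and 51.5% in the same order. The full control lists held 28690, 24728 and 148755 pairs with BCL9 and 118933, 98665 and 374089 with pSTAT3. These shares were not taken at equal list length, so they do not compare the antibodies in control cells.

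The 12 strongest regions of each class are members of the classes above and give no separate support. Of these 12, the AP-1 string stood in 6 shared, 9 pSTAT3 alone and 0 BCL9 alone regions, and CCAAT in 2, 0 and 7. CCAAT was searched after sequences among these regions had been read, so its counts here only describe them. Promoters made up 1, 3 and 11 of the 12. The shared ones included the promoter of WWTR1, which encodes the co-activator TAZ, at ranks 94 and 197.5 with pSTAT3 and 4 and 59 with BCL9, a region 125194 bp downstream of a start of TP63, the master regulator of basal epithelium, and one 4923 bp upstream of ITGA3, an integrin chain that binds laminin. The BCL9 alone ones included the promoters of SP1 and SP2, factors that bind GC boxes, and the region upstream of NLK, a kinase acting on TCF/LEF factors.

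Gene by gene, the best-ranked peak pair within 5 kb of a protein-coding TSS was compared. The score of a gene was log2((N + 1)/rank), with N = 95586, so that a higher score is a stronger pair and 0 means that no pair was found in the shortened list. Throughout the gene comparisons, a gene at no rank may still have weaker pairs in the full list. A pair was found near 4188 and 3792 of 19748 genes in the pSTAT3 libraries and near 8596 and 7705 in the BCL9 libraries. All 4 libraries marked 1985 genes, both pSTAT3 libraries but no BCL9 library 191, and both BCL9 libraries but no pSTAT3 library 2279. The pSTAT3 pairs were also the more crowded, as given above, and the part of crowding in these counts was not tested.

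Of 6989 genes tested with limma, 0 passed in either direction (0% of genes tested for each, Benjamini-Hochberg adjusted p under 0.05), while 237 were higher with pSTAT3 and 1163 higher with BCL9 at an unadjusted p under 0.05. That lean towards BCL9 was kept in most other settings. The unadjusted counts were 135 and 744 within 1 kb of a TSS and 354 and 754 with nonoverlapping windows. The lean turned towards pSTAT3 with all listed pairs, at 774 and 370, and with pairs of at least 9 tags, at 673 and 411. In these latter settings N was each library's own list length, so the longer pSTAT3 lists scored higher at the same rank. The part of this offset in the changed counts was not tested. The lowest adjusted p was 0.0836, at SPATC1L. Scores of both pSTAT3 libraries lay above both BCL9 libraries for 712 genes (10.2%) and below both for 3674 (52.6%), and the median difference over all tested genes was -0.68. Genes entered with a pair in at least 2 libraries, so the 2279 genes with a pair in both BCL9 libraries and in no pSTAT3 library were bound to lie on the BCL9 side, as were 191 on the pSTAT3 side, and these counts describe the genes that passed the filter without supporting a direction. At this list length no gene passed, whereas 121 and 110 did with all listed pairs, 224 and 1426 with summed signal and 15 and 74 with nonoverlapping windows, in the same order. The genes below are those with the largest differences at equal list length, given as values. In the fit over all 10 libraries, the knockdown contrast passed for 20 genes higher with pSTAT3 (0.525% of 3806 tested) and 76 higher with BCL9 (2%).

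Of the 10 genes with the largest differences towards BCL9, most had no pSTAT3 pair in the shortened lists. SPATC1L, named for its likeness to a spermatogenesis gene, held the best-ranked pair of both BCL9 lists and none of the 95586 strongest pairs of either pSTAT3 library, whose full lists held 4 weaker pairs each. Its score difference was -16.54 ± 0.96 (SE, limma adjusted p = 0.0836). SP2 stood at ranks 2 and 10 with BCL9 and at none with pSTAT3. Genes with a high rank in both BCL9 libraries and no pSTAT3 pair in the shortened lists also included EVI5L, a GTPase-activating protein (ranks 12.5 and 56.5), NLK (25 and 36) and ANKHD1, an ankyrin repeat protein (50.5 and 10). ANKHD1 and its readthrough ANKHD1-EIF4EBP3 were scored from the same pair. In the full pSTAT3 lists weaker pairs numbered 18 and 20 at ANKHD1, 2 and 6 at EVI5L, 1 and 0 at NLK and 0 and 3 at SP2.

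SP1 stood at ranks 68 and 12.5 with BCL9, at 76673 in pSTAT3 1 and at none in pSTAT3 2. RAB5B, a GTPase of early endosomes, stood at 10.5 and 282.5, and NAIF1 at 14 and 282.5, with only weaker pSTAT3 pairs in the full lists, 1 and 7 at RAB5B and 2 and 2 at NAIF1. ZNF687, a zinc finger protein, stood at 9 and 332.5 with BCL9 and at 93287 in pSTAT3 2 alone. In the 10-library fit SPATC1L, SP2, ANKHD1, EVI5L, NLK, SP1, RAB5B, ZNF687 and NAIF1 all passed in knockdown cells. They had been chosen for large differences in the same knockdown libraries, so their passing is no separate support. Their differences had the same sign in control cells.

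Towards pSTAT3, the largest differences were at EXOC8 and SPRTN, with 9.55 ± 1.42 (SE, limma adjusted p = 0.140) for both. XRCC5, which encodes the Ku80 subunit of the end-joining machinery, stood at ranks 261.5 and 122 with pSTAT3 and at none with BCL9, although the full list of BCL9 2 held 8 weaker pairs. EXOC8, an exocyst subunit, and its divergent neighbour SPRTN, a protease for DNA-protein crosslinks, were scored from the same pair, at 377 and 34.5 with pSTAT3 and 76703.5 and none with BCL9. ERCC1, part of the excision repair nuclease, stood at 50 and 14.5 with pSTAT3 and 5489.5 and 2517.5 with BCL9. The lowest adjusted p of the 10 genes in limma was 0.106, at XRCC5.

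HMGA1, a chromatin protein of embryonic and cancer cells, and its neighbour SMIM29 took their best pSTAT3 pairs, ranks 63.5 and 273.5, from one place 3959 to 4293 bp from their starts, and stood at 33238.5 with BCL9 1. With pairs limited to 1 kb of a TSS the HMGA1 difference changed from 8.26 to -0.69, and that of EEIG1, whose best pairs all lay close to the 5 kb limit, from 6.14 to -0.76. CEP128, a centriole protein, MUC20, a mucin, and TAGLN3, an actin-associated protein, completed the 10. TAGLN3 stood at 41 and 350.5 with pSTAT3 and at 76703.5 and 557 with BCL9, so its BCL9 libraries lay far apart.

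**Figure D5:**
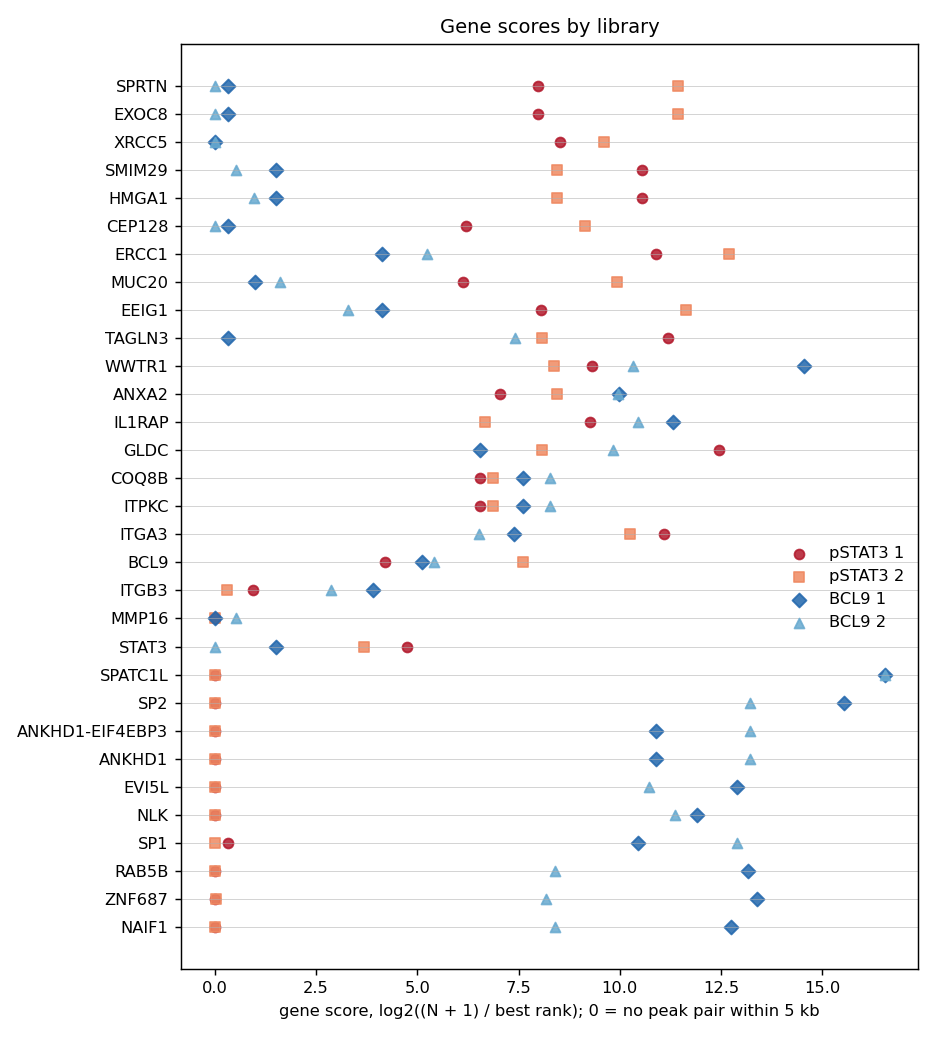
Gene scores in each library, log2((N + 1)/best rank) with 0 for no pair within 5 kb, for the genes with the largest differences in each direction, genes among the 8 highest lowest scores, and ITGB3, MMP16, BCL9 and STAT3. The SPATC1L to NAIF1 rows hold BCL9 points far right of pSTAT3 points at or near 0, and the SPRTN to TAGLN3 rows hold pSTAT3 points to the right.

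Named next are genes whose lowest score over the 4 libraries was among the 8 highest. WWTR1 stood at ranks 149, 287.5, 4 and 74, in the order pSTAT3 1, pSTAT3 2, BCL9 1 and BCL9 2, which is kept below. ANXA2, an annexin at the plasma membrane, stood at 730.5, 273.5, 94.5 and 95.5. Both BCL9 libraries ranked WWTR1 and ANXA2 higher.

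IL1RAP, the co-receptor for interleukin 1, stood at 156, 934.5, 37.5 and 68. ITGA3 stood at 43.5, 79, 574.5 and 1034, the one gene of this group with both pSTAT3 libraries higher. GLDC, which cleaves glycine, stood at 17, 350.5, 1026.5 and 105.5, and the neighbours COQ8B and ITPKC shared 1027, 820, 488.5 and 307.5. GLDC overlapped between antibodies.

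ITGB3, MMP16, STAT3 and BCL9 are given whatever their values. ITGB3, the beta 3 integrin, stood at 49898, 77445.5, 6319.5 and 13165. Both BCL9 libraries ranked it higher, with a difference of -2.77 ± 0.80 (SE, limma adjusted p = 0.213). Over the alternatives its difference ran from -1.43 with all listed pairs to -3.30 without BCL9 2, and its adjusted p from 0.0154 to 0.767. The value of -1.43 came from scores that took each library's own list length as N. MMP16, a membrane-bound metalloproteinase, had a pair in the shortened list of BCL9 2 alone, at 65953, and was not tested, while the full lists held 6, 2, 0 and 4 pairs. STAT3 stood at 3551.5, 7421, 33238.5 and none, and BCL9 at 5199.5, 490.5, 2752 and 2239.5. STAT3 was higher with pSTAT3 and the BCL9 gene overlapped.

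Among 30 STAT3 targets, a pair was found in all 4 libraries for 16 and in none for 3. Of all 19748 genes, 1985 had a pair in all 4 and 8043 in none. The median difference of the 26 tested was -0.54, beside -0.68 for all genes. Scores with pSTAT3 were above both BCL9 libraries for 7 and below for 9, beside 10.2% and 52.6% of all tested genes. The feedback inhibitor SOCS3 and the immediate early gene FOS were among the 7 and JUNB and CCND1 among the 9. BCL3, a co-activator of NF-kappaB, stood at 2014.5, 2863.5, 5489.5 and 5852.5. Of the 20 IL-6 family ligands, receptors and kinases, pSTAT3 was above at IL6R, LIFR and SOCS3 and BCL9 at LIF and PIAS3, with 8 of 13 overlapping. The same 10.2% and 52.6% of all tested genes stand beside these counts. LIF, a ligand of the family, stood at 12151.5, 29155, 1516.5 and 848.5.

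Among the 28 genes of the Wnt and BCL9 pathway, BCL9 was above for 10 of 17 tested and pSTAT3 for 1, WNT7B, with a median of -0.55. Those 10 included CTNNB1, which encodes beta-catenin, PYGO2, the partner of BCL9, and TCF7L2. CTNNBIP1, an inhibitor of beta-catenin, stood at 4571.5, 4281, 488.5 and 1765. The Wnt and BCL9 pathway counts of 10 and 1 of 17 stood beside 52.6% and 10.2% of all tested genes. Among the 17 genes of the YAP and TEAD pathway pSTAT3 was above for 3 of 13, AMOTL1, AXL and VGLL4, and BCL9 for 4. The shares of all tested genes were 10.2% for pSTAT3 and 52.6% for BCL9. AXL, a receptor tyrosine kinase, stood at 121.5, 934.5, 2492 and 18407.5.

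Matrix proteases and plasminogen activators had a positive median, 0.92. There pSTAT3 was above for 8 of 16 tested and BCL9 for 4, beside 10.2% and 52.6% of all tested genes. The 8 were MMP1, MMP3, MMP10, ADAM9, ADAM17, PLAU, PLAUR and TIMP1. MMP1, MMP3 and MMP10 lie in one gene cluster. ADAM17, a sheddase of EGF receptor ligands, stood at 764, 509.5, 2752 and 1144.5, and MMP10 at 13065, 3373, 19228.5 and 18407.5. For 12 integrins tested, pSTAT3 was above at ITGA2 and ITGA3 and BCL9 at 7, beside the same 10.2% and 52.6%. Their median was -1.10.

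Histone genes lay farthest towards BCL9. BCL9 was above for 15 of 17 tested and pSTAT3 for 0, beside 52.6% and 10.2% of all tested genes, with a median of -3.97. A pair lay in both BCL9 libraries for 16 and in both pSTAT3 libraries for 3. Most thus passed the filter through BCL9, and these counts do not support a direction. H4C14 stood at none, none, 2268 and 2239.5, and H3C2 at 86872.5, none, 267.5 and 557. H2AC20 and H2BC21 were scored from the same pairs, and clustered histone genes lie side by side as near-identical copies, so members are not separate observations. Of 18 ribosomal protein genes BCL9 was above for 12 and pSTAT3 for 0, beside the same 52.6% and 10.2%, with a median of -1.16, and RPL4 stood at none, none, 4248.5 and 15486. The same limit holds, since 15 had a pair in both BCL9 libraries and 5 in both pSTAT3 libraries.

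The remaining lists are given by their counts, to be read against the 52.6% of all tested genes with BCL9 above and the 10.2% with pSTAT3 above. The limit set by the gene filter holds for them too. Of 20 tested transcription factors from the REL, ETS, C/EBP and AP-1 families, BCL9 was above for 9 and pSTAT3 for FOS and FOSL1 (median -0.71). Among EGF receptors, ligands and feedback inhibitors BCL9 was above for 9 of 17 and pSTAT3 for EGFR and SPRY2, close to those shares (median -1.03), and DUSP6, a phosphatase of ERK, stood at 18025.5, 10493.5, 88.5 and 1577. Of 14 EMT genes BCL9 was above for 9 and pSTAT3 for VIM and SMAD3 (median -0.50), and GRHL2, a factor that maintains epithelium, stood at none, none, 574.5 and 5852.5. For p53 and p63 targets the counts were 7 and 0 of 16 (median -0.74), and for cell cycle genes 5 and 0 of 6 (median -0.70).

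Marker genes of cell types were counted in the same way. Among 8 basal mammary epithelial markers a pair lay near 5 in all 4 libraries, and no marker was without a pair in every library. S100A2, a calcium-binding protein on the wider list of 20 basal epithelial genes, stood at 142, 273.5, 2075.5 and 203.5. Among 7 luminal markers 3 had a pair in all 4, with KRT19 at 5567.5, 10493.5, 199 and 465. Of all 19748 protein-coding genes, 1985 had a pair in all 4 libraries, and the basal and the luminal share both stood above that. No pair was found near 3 of 5 fibroblast, 2 of 3 matched endothelial and 2 of 5 leukocyte markers, beside 8043 of all 19748 protein-coding genes, so the leukocyte count was at the level of all genes. Of 24 genes of other tissues, 19 had no pair in any library. A peak pair near a gene is not a measure of its expression.

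Whether the gene differences were particular to knockdown cells was tested by the interaction of antibody and condition over the 10 libraries. Of 3806 genes tested, 0 passed (0%, limma) and 121 had an unadjusted p under 0.05. Of the 20 genes higher with pSTAT3 in knockdown cells, 19 had the same sign in control cells and 10 also passed there. Of the 76 higher with BCL9, 74 had the same sign and 43 also passed. The shares of all 3806 genes with the same sign or passing in control cells are not given here. These counts therefore only describe the genes called.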

How the data were processed

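ChIP-exo peak pairs (hg19) of the pSTAT3, BCL9 and CTCF libraries were used. The signal deposited by the authors was, in each list, a whole number of tags times a library constant. How that constant arose, and the aligner, are not stated in any source consulted. Pair midpoints were given 100 bp windows, ranked by signal and compared at equal list length, since signal is not comparable between libraries. Flanks were 4 windows 500 and 1000 bp away on either side. Protein-coding TSSs (78530, of 19748 genes) came from GENCODE lifted to GRCh37. Gene scores were tested with limma 3.58.1 (R 4.3.3, trend, Benjamini-Hochberg threshold 0.05) for genes with a pair in at least 2 libraries. Shares were compared by exact permutation over libraries. Other steps used Python 3.11.15, numpy 2.4.6 and pandas 2.3.3, and the limma step was tested on simulated data.

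Named genes were the 10 with the largest difference in each direction whose libraries did not overlap between antibodies, the 8 with the highest lowest score, up to 4 members of each list by mean score, and ITGB3, MMP16, BCL9 and STAT3; list members named for their direction were added after their values were seen. Members and lists were chosen with earlier results of these data known. Nonoverlapping windows, CCAAT and the 10-library knockdown contrast as an alternative were added after the data were seen. Repeat content could not be used to choose printed sequences. Alternatives covered list length, tag minimum, reach, summed signal, overlap, the replicate block and leaving out each library. Some genes and sequences that these rules name are not reported here.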

Additional observations from a re-analysis of the deposited data

How the results depend on the processing

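The promoter and AP-1 differences of the 4 libraries kept their direction under every alternative run, but with all listed pairs the AP-1 difference fell from 19.3 to 4.41 points (22.8 to 5.12 over 10 libraries) and the promoter difference moved from -3.92 to -2.10 (-4.69 to -2.25 over 10 libraries). The share of pSTAT3 windows at BCL9 windows, 53.5% as reported, was 22.8% with all listed pairs, 50.7% with lists of 24728 pairs, 40.8% with pairs of at least 9 tags, 31.4% with nonoverlapping windows, 41.0% where at least 50 bp had to be shared, and 49.0% to 58.1% without either BCL9 library. The within minus between Jaccard difference ran from -0.0668 to 0.396 with 1 library left out and was negative without either pSTAT3 library. Over 10 libraries, the promoter difference was -4.32 and the AP-1 difference 22.3 without the 2 controls listed under a single identifier (exact permutation p = 0.0556, the smallest allowed). Genes higher with pSTAT3 and with BCL9 (limma, 0 and 0 as reported, and also with pairs of at least 9 tags, within 1 kb, without the gene filter and with quantile-normalized scores) numbered 121 and 110 with all listed pairs, 0 and 1 with 24728 pairs, 224 and 1426 with summed signal, 15 and 74 with nonoverlapping windows, 20 and 76 in the 10-library contrast, and 6 to 116 and 49 to 962 with 1 library left out. In those last fits the lone library was assumed to vary like the others, and many variances were 0, so limma's estimates there are unreliable. With the replicate block the counts were 64 and 219, and the share differences stayed at -3.92 and 19.3 (exact permutation p = 0.5, the smallest allowed). The deviations of same-numbered libraries correlated at -0.0143. That value cannot show whether such libraries came from the same cultures, which the labels do not say. HMGA1 and EEIG1 reversed to -0.69 and -0.76 within 1 kb of a TSS, and the difference at BCL9 ran from -1.07 without pSTAT3 2 to 2.34 without pSTAT3 1. For gene scores with all listed pairs and with pairs of at least 9 tags, N was each library's own list length. The longer pSTAT3 lists then scored higher at the same rank. The cause of these changes was not tested, and ties among pairs of 7 to 10 tags limit what weak pairs can show.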
